A study of Fukomys damarensis and Heterocephalus glaber and Mus musculus with 160 samples.

Results

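The regions described here are the TBX5 peaks of Damaraland mole-rat heart, places where chromatin recovered with an antibody against the transcription factor TBX5 was sequenced more often than expected. All peaks of the heart TBX5 list whose −log10 q reached 4 were taken, where q is the peak caller's p-value adjusted for the number of places examined. They number 62813 of the 139418 peaks of that list, and of 8953087 peaks in the lists of the whole series. They were selected on that measured q-value, so their q and the fold enrichment that goes with it are given as a description only. The marks and the liver factors were measured in other libraries and played no part in the choice.

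The series measured chromatin by immunoprecipitation and sequencing (ChIP-seq) in liver and heart of 4 rodent species. TBX5 was examined in 1 library, from the heart of DMR6, a wild-type adult female Damaraland mole-rat (Fukomys damarensis) with an estimated age of 48 months. That library has no replicate, so the spread between hearts is not known for TBX5. The histone libraries came from wild-type adults whose ages were estimated at 36 or 48 months. Heart H3K4me3, H3K27ac and H3K4me1 were each measured in the same 5 males (DMR1, DMR2, DMR3, DMR4 and DMR11), and none of these heart libraries came from DMR6. Liver H3K27ac and H3K4me1 were measured in 5 animals each (DMR1, DMR2, DMR3, DMR4 and DMR6), and liver H3K4me3 in DMR1 and DMR4. The 8 liver factor lists were RXRA, FOXA1 and CEBPA in DMR1 and DMR4, HNF6 in DMR1 and HNF4A in DMR4. Tissues were diced whole organs, so each library mixes the cell types of its organ. The lists give no read numbers, so the depth of each library is unknown.

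TBX5 is a T-box transcription factor that is needed to form the heart chambers and the conduction system, and in the adult heart it is found in cardiomyocytes, those of the atria and the conduction system included. It binds promoters and distant enhancers, often together with the cardiac factors GATA4 and NKX2-5. Of the histone marks, H3K4me3 is found at promoters, H3K27ac at active promoters and enhancers, and H3K4me1 at enhancers whether active or primed. The liver factors are regulators of hepatocyte genes: HNF4A, HNF6 and CEBPA keep the hepatocyte state, FOXA1 opens chromatin for other factors, and RXRA is the partner of many nuclear receptors.

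Most TBX5 peaks were narrow and had folds within a small range. The fold enrichment of a peak, the linear ratio of its signal to background as the authors' peak caller gave it, had a median of 5.12 and ran from 1.23 to 66.0. The middle 50% of the peaks lay between 4.73 and 5.91. The −log10 q had a median of 5.47 and reached 5547. Widths had a median of 413 bases, and 27645 peaks (44.0%) had the smallest width in the list, 389 bases. Just inside the threshold lay the peak KN122369.1:18118-18573, with a −log10 q of 4.02 and a fold of 3.91. Just outside lay 171 peaks that shared a −log10 q of 3.99, among them KN100305.1:34-484 with a fold of 3.41.

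The folds were not spread evenly but sat on steps. The 5 commonest values were 4.73 (9227 peaks), 5.12 (6778), 5.52 (4769), 5.91 (3454) and 6.31 (2327), each 0.394 above the one before, and together they held 42.3% of the TBX5 peaks. All peaks on a step also shared 1 value of −log10 q. The next commonest values were 4.14 (1753 peaks), 6.70 (1537) and 4.46 (1339), so the steps did not end with these 5. Towards higher folds the number fell quickly: 879 peaks (1.40%) reached a fold of 10, and 86 exceeded 20. At the other end, 625 peaks (0.995%) had a fold under 3. The plot of fold enrichment shows the steps and both ends.

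**Figure D1:**
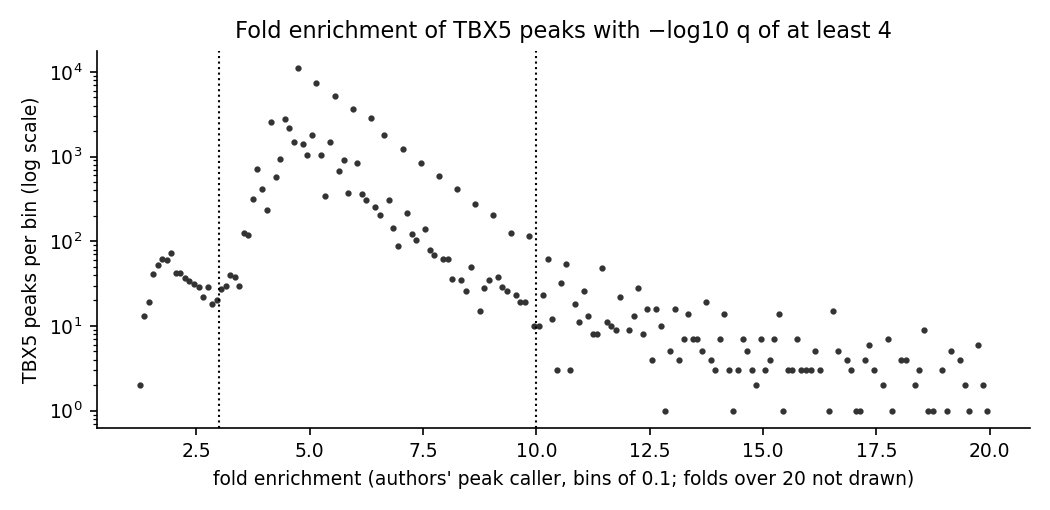
Number of TBX5 peaks (log scale) in each bin of 0.1 of fold enrichment, one point per bin that holds a peak, for the 62813 peaks of the heart TBX5 library. Dotted lines mark folds of 3 and 10; the highest points are the steps from 4.73 upwards, and the 86 peaks over a fold of 20 are not drawn.

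The TBX5 peaks were then set against the histone marks of heart and liver. A consensus region was one with a peak in at least 2 libraries of the same tissue and mark, and a TBX5 peak overlapped it when they shared at least 50% of the shorter of them. Beside each share stands that of the whole TBX5 list, which includes the peaks below the threshold. Heart H3K27ac was the mark most often found: 6196 TBX5 peaks (9.86%, Wilson 95% interval 9.63 to 10.1; whole list 7.11%) overlapped it, against 3759 (5.98%, 5.80 to 6.17; whole list 5.00%) for liver H3K27ac. For H3K4me3 the heart held 1671 (2.66%; whole list 2.10%) and the liver 1236 (1.97%; whole list 1.59%). The liver H3K4me3 consensus needed a peak in both of its 2 libraries and the heart one in any 2 of 5, with 20816 against 27698 regions. For H3K4me1 the order of the tissues was the other way, with 4066 TBX5 peaks (6.47%; whole list 5.04%) in heart and 5068 (8.07%; whole list 7.18%) in liver. The liver H3K4me1 regions also covered more of the scaffolds, 7.58% of their summed length against 4.13% for heart H3K4me1. With the same number of peaks taken from every library, the H3K4me1 shares were 3.45% in heart and 3.90% in liver. With a −log10 q of at least 10 asked of the TBX5 peaks, the heart share of H3K4me1 was the higher one by 2.53 percentage points, and 28.4% of the TBX5 peaks lay in heart H3K27ac and 11.9% in liver H3K27ac. The intervals cover counting error only.

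The larger number of TBX5 peaks lay in none of these 6 sets. In all, 52794 (84.0%; whole list 86.9%) overlapped no consensus region of either tissue, and 49704 (79.1%; whole list 82.5%) overlapped no peak of any of the 27 histone libraries. A heart consensus region of some mark was present at 7517 TBX5 peaks (11.97%; whole list 9.02%) and a liver one at 6293 (10.0%; whole list 8.76%). Heart regions without any liver region accounted for 3726 (5.93%; whole list 4.34%), and liver regions without any heart region for 2502 (3.98%; whole list 4.08%). The peaks of the list below the threshold overlapped heart H3K27ac in 4.86% and liver H3K27ac in 4.20%, so the tissues lay closer together there than above it.

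Library by library, the spread of these shares was wide. Heart H3K27ac peaks lay at 5.12% of the TBX5 peaks in DMR1, 7.24% in DMR11, 8.25% in DMR3, 9.21% in DMR2 and 9.46% in DMR4, a mean of 7.85% ± 1.76 (SD, n = 5). Liver H3K27ac peaks lay at 4.32% in DMR3, 4.34% in DMR6, 5.25% in DMR4, 5.42% in DMR1 and 5.64% in DMR2, a mean of 4.99% ± 0.623 (SD, n = 5). The tissues overlapped only through heart DMR1, whose list was the shortest of the 10 with 51446 peaks. Within the 4 animals with both tissues, the heart share was 4.21 percentage points above the liver share in DMR4, 3.93 in DMR3 and 3.57 in DMR2, and in DMR1 the difference was −0.30 points. DMR6, the animal of the TBX5 library, was near the lower end of the liver libraries.

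H3K4me3 showed the same order of the tissues by a narrower margin, and H3K4me1 did not. Heart H3K4me1 averaged 4.25% ± 1.97 (SD, n = 5), from 1.32% in DMR11 to 6.31% in DMR2, and liver H3K4me1 5.79% ± 1.15 (SD, n = 5), from 4.48% to 7.65%. The heart DMR11 list held 32893 H3K4me1 peaks against 88163 to 158541 in the other 4. The heart H3K4me1 list of DMR1, whose name carries a tag the labels do not explain, gave 3.91%, inside the range of the rest. Within animals, the H3K4me1 share was lower in heart in DMR1, DMR2 and DMR3 and higher in DMR4, with a mean difference of −0.854 percentage points ± 0.924 (SD, n = 4).

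Heart H3K4me3 averaged 2.38% ± 0.572 (SD, n = 5) and liver H3K4me3 2.00% ± 0.295 (SD, n = 2). In 4 hearts it lay at 2.56% to 2.74% of the TBX5 peaks, above both livers at 1.79% in DMR1 and 2.21% in DMR4. The tissues overlapped only through heart DMR11 at 1.37%, whose list was again the shortest of its mark.

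Of the 6 single-mark consensus sets, heart H3K27ac was the one whose share of TBX5 peaks changed most with fold. It was 7.56% of the 24417 peaks with a fold of 4 to under 5, and also 7.56% at 5 to under 6 (22854 peaks). It was 13.1% at 6 to under 8 (10622 peaks), 27.9% at 8 to under 10 (1576 peaks) and 59.5% at 10 to under 15 (632 peaks). At folds of 15 and above, 72.5% of 247 peaks lay in heart H3K27ac (Wilson 95% interval 66.6 to 77.7). Liver H3K27ac was found at 5.34%, 5.12%, 7.18%, 12.4%, 21.8% and 18.2% of the same 6 bands. The heart share exceeded the liver share by 2.22 percentage points in the lowest of these bands and by 54.3 points in the highest. The peaks under a fold of 3 lay in heart H3K27ac in 2.08%, and those from 3 to under 4 in 12.1%, so the share did not go up steadily from the lowest folds. In 10 groups of equal number ordered by fold, the share was 25.8% in the highest and 9.50% in the lowest, a difference of 16.3 percentage points.

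Counted over all TBX5 peaks of a band, the increase in H3K27ac lay in regions that carry the mark in heart. TBX5 peaks in H3K27ac of heart but not of liver made up 5.98% of all (3755; whole list 4.22%), those in H3K27ac of both tissues 3.89% (2441; whole list 2.89%) and those in liver H3K27ac alone 2.10% (1318; whole list 2.11%). From the band of 4 to under 5 to that of 15 and above, the share in heart alone went from 4.44% to 56.7% and the share in both tissues from 3.13% to 15.8%. The share in liver alone lay between 1.74% and 2.43% in all 7 bands from a fold of 3 upwards. The peaks outside heart H3K27ac became fewer with fold, however. Of these, 540 of 22570 lay in liver H3K27ac at 4 to under 5, 11 of 256 at 10 to under 15 and 6 of 68 at 15 and above. Among them the liver share was thus higher at high folds, on small counts.

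The other marks followed fold less steeply. Heart H3K4me1 was found at 5.46% of TBX5 peaks with a fold of 4 to under 5 and at 33.7% and 32.4% in the 2 highest bands. Liver H3K4me1 was found at 7.47%, 25.2% and 24.3% of the same bands. The liver share of H3K4me1 was the higher one in every band from 3 to under 8. From a fold of 8 the heart share was the higher one, with 15.4% against 12.9% at 8 to under 10. Heart H3K4me3 went from 2.23% to 10.5% between the band of 4 to under 5 and the highest band, and liver H3K4me3 from 1.71% to 4.45%. The plot by fold shows the 3 marks side by side.

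**Figure D2:**
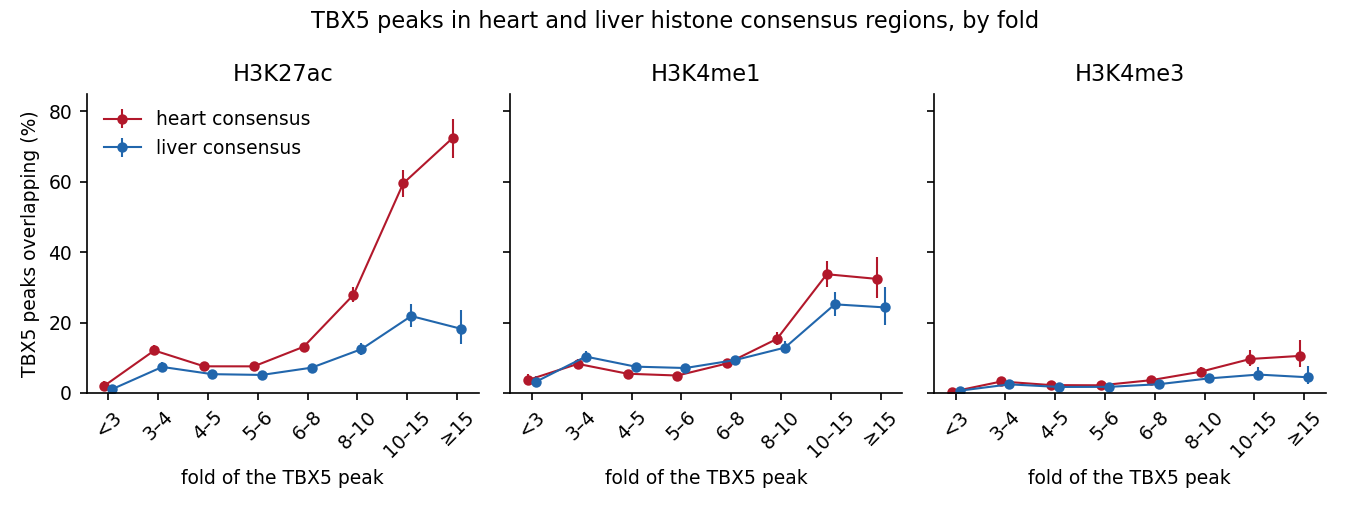
Percentage of TBX5 peaks that overlap a heart (red) or liver (blue) consensus region of H3K27ac, H3K4me1 or H3K4me3, in 8 bands of the TBX5 peak's fold; bars are Wilson 95% intervals. Heart H3K27ac reaches 72.5% in the highest band against 18.2% for liver, while both H3K4me3 curves stay under 11%.

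The bands between 4 and 8 hid a second difference, between peaks on the 5 commonest steps of fold and other peaks of like fold. The 26555 TBX5 peaks with 1 of the 5 commonest folds lay in heart H3K27ac in 4.37% and in liver H3K27ac in 3.47%. The 18224 others with a fold of 4.5 to under 6.5 lay there in 12.4% and 7.73%. Counted by the summit, the highest point of a peak, 4.28% of the peaks on the steps fell inside heart H3K27ac, whose regions covered 4.35% of the summed scaffold length; over all TBX5 peaks this share was 9.60%, and over the whole list 6.98%. By the same count 12.2% of the others of like fold fell inside it. The peaks on these 5 steps were 389 bases wide at the median and the others of like fold 415 bases. The 2 sets were not alike in −log10 q either, with medians of 5.44 and 6.09. The others had folds apart from the 5 commonest, which does not exclude further steps among them.

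Among the 879 TBX5 peaks with a fold of at least 10, heart and liver libraries were apart. Heart H3K27ac peaks lay at 38.5% of them in DMR1, 48.9% in DMR11, 55.9% in DMR2, 56.9% in DMR3 and 58.4% in DMR4, a mean of 51.7% ± 8.24 (SD, n = 5). Liver H3K27ac peaks lay at 17.1% in DMR6, 17.2% in DMR3, 19.6% in DMR4, 20.5% in DMR1 and 20.7% in DMR2, a mean of 19.0% ± 1.77 (SD, n = 5). The lowest heart library was above the highest liver library. For H3K4me1 the means were 23.9% ± 9.72 in heart and 20.0% ± 2.38 in liver (SD, n = 5 each), with the liver values, 17.2% to 23.7%, inside the heart range of 9.78% to 34.1%. Within the 4 animals with both tissues, however, H3K4me1 was higher in heart in all 4, by 1.82 percentage points in DMR1, 5.46 in DMR3, 10.5 in DMR2 and 12.4 in DMR4; the lowest heart value, DMR11, has no liver library beside it. For H3K4me3 they were 9.08% ± 2.44 (SD, n = 5) and 5.35% ± 0.804 (SD, n = 2), with the lowest heart library, DMR11 at 5.01%, between the 2 liver libraries.

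**Figure D3:**
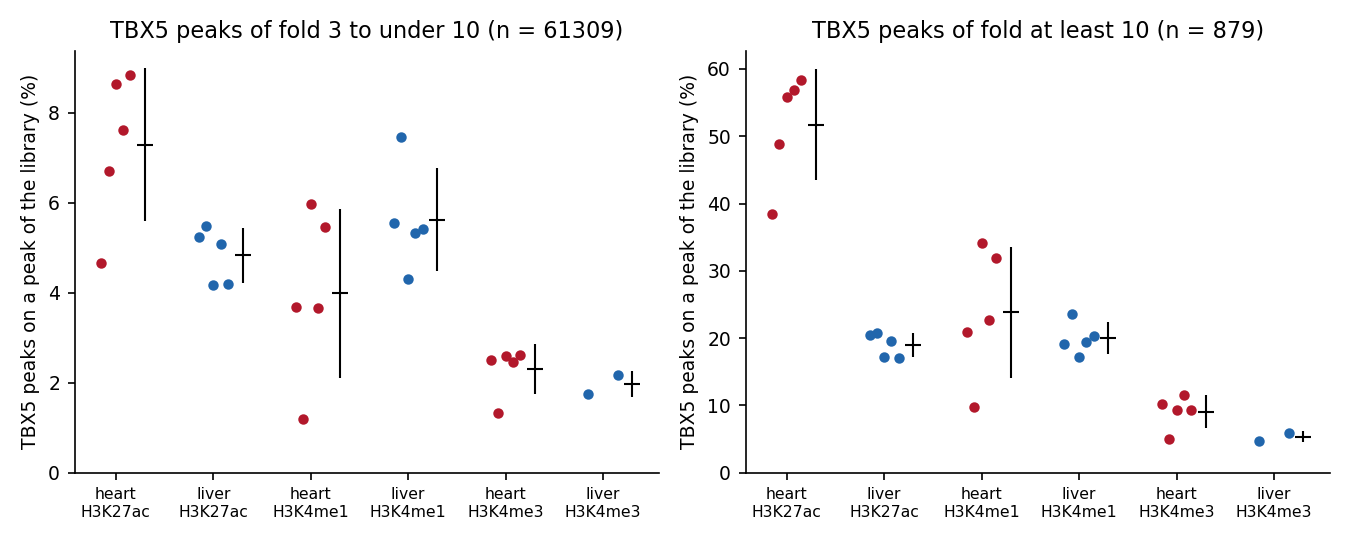
Percentage of TBX5 peaks that overlap a peak of each histone library, one point per library (red heart, blue liver), for peaks with a fold of 3 to under 10 (left) and of at least 10 (right); the black bar is the mean with its SD. The axes differ: on the right the 5 heart H3K27ac libraries lie between 38.5% and 58.4%, above all 5 liver ones.

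By consensus, 555 of the 879 (63.1%, Wilson 95% interval 59.9 to 66.3) lay in heart H3K27ac and 183 (20.8%, 18.3 to 23.6) in liver H3K27ac. Those in heart H3K27ac alone numbered 389 (44.3%), those in both tissues 166 (18.9%) and those in liver alone 17 (1.93%). Neither tissue had H3K27ac at the remaining 307 (34.9%; all TBX5 peaks 88.0%; whole list 90.8%). Over all TBX5 peaks, 5.98% lay in heart H3K27ac alone, 3.89% in both tissues and 2.10% in liver alone. Support among the hearts was divided, since 241 of the 879 overlapped an H3K27ac peak in all 5 heart libraries and another 241 in none. A further 126 overlapped one in 4 hearts, 98 in 3, 96 in 2 and 77 in 1. All 5 hearts and no heart were thus at 27.4% each, against 3.93% and 87.8% over all TBX5 peaks.

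The heart marks at a TBX5 peak, taken from the consensus regions, were combined into classes. A mark with a peak in 1 heart only can therefore count as missing. H3K27ac together with H3K4me3 was called a promoter. H3K27ac together with H3K4me1, where H3K4me3 was missing, was called an active enhancer, and H3K4me1 as the only mark a primed enhancer. Of all TBX5 peaks, 2.40% were at promoters (1509; whole list 1.85%), 4.05% at active enhancers (2544; whole list 2.89%) and 1.85% at primed enhancers (1159; whole list 1.66%). A further 3.41% had H3K27ac as the only heart mark (2143; whole list 2.38%) and 0.258% had H3K4me3 without H3K27ac (162; whole list 0.250%). At folds of at least 10, H3K27ac alone was the largest of the marked classes, with 257 peaks (29.2%). Active enhancers followed with 215 (24.5%), promoters with 83 (9.44%) and primed enhancers with 54 (6.14%). No heart mark was found at 266 of the 879 (30.3%; all TBX5 peaks 88.0%; whole list 91.0%). Of the 879, 179 (20.4%) overlapped an H3K4me1 peak in 1 heart only and 410 (46.6%) in none. How the order of H3K27ac alone and active enhancers depends on such single peaks was not tested.

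Seen from the histone regions, few held a TBX5 peak. Of 77153 heart H3K27ac consensus regions, 5731 (7.43%) overlapped a TBX5 peak and 556 (0.721%) one with a fold of at least 10. Of 76287 liver H3K27ac regions, which covered 100.1 Mb against 99.8 Mb in heart, 3630 (4.76%) overlapped a TBX5 peak and 191 (0.250%) one with a fold of at least 10. The share grew with the number of heart libraries behind a region, from 2.39% of regions found in 2 hearts to 14.5% of those found in all 5, but the median width of the regions grew too, from 427 to 1813 bases.

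Density per length takes that width into account. TBX5 summits numbered 27.4 per Mb over all scaffolds, whose lengths were taken up to the last base of their farthest peak. Heart H3K27ac regions found in 2, 3, 4 and 5 libraries held 37.8, 45.7, 48.1 and 69.1 TBX5 summits per Mb. Liver H3K27ac regions with the same support held 33.5, 36.8, 37.0 and 36.9, so density changed little with support in liver.

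The tissue of the H3K27ac region set this density apart most for high folds. Regions of heart H3K27ac that touch no liver H3K27ac held 68.4 TBX5 summits per Mb, 2.50 times the density over all scaffolds, and liver regions that touch no heart region held 22.9, or 0.835 times. Regions of heart touching liver lay between, at 54.5 per Mb. For peaks with a fold of at least 10, the density over all scaffolds was 0.383 per Mb. It was 7.13 per Mb (301 summits, 18.6 times) in heart-only regions, 3.72 (214 summits, 9.70 times) in heart regions touching liver, and 0.225 (10 summits, 0.587 times) in liver-only regions.

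**Figure D4:**
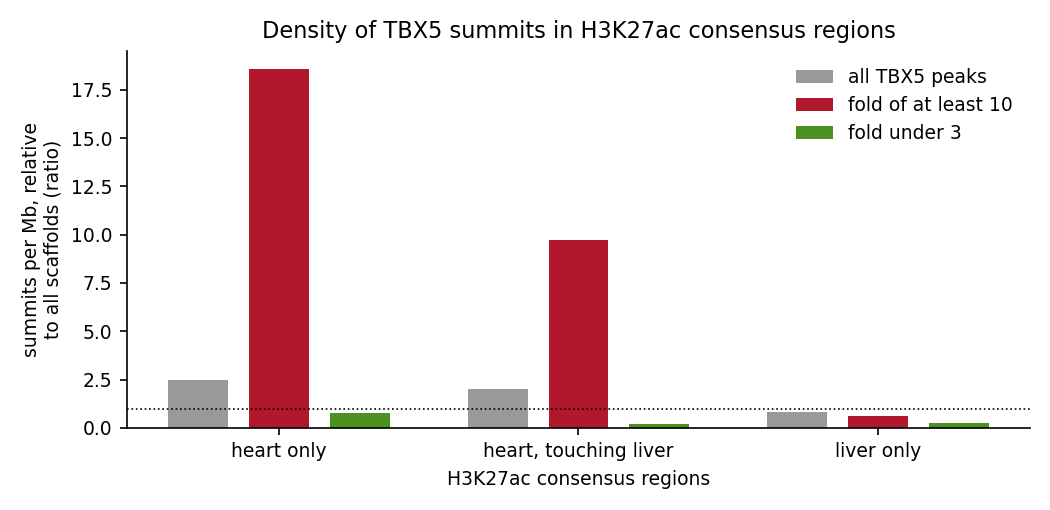
TBX5 summits per Mb inside H3K27ac consensus regions of heart only, of heart touching a liver region, and of liver only, divided by the density over all scaffolds (dotted line at 1), for all TBX5 peaks, those of fold at least 10 and those of fold under 3. The bars for fold at least 10 stand at 18.6, 9.70 and 0.587.

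The H3K27ac peaks under TBX5 peaks mostly ranked high in their own lists. Ranked by fold within each of the 5 heart H3K27ac lists, those overlapping a TBX5 peak had median percentiles of 73.8 to 82.0 (0 the lowest and 100 the highest), and those overlapping a TBX5 peak with a fold of at least 10 had 79.7 to 87.4. The second value was the higher one within each of the 5 heart libraries, from 79.6 to 81.0 in DMR11 at one end to 73.8 to 79.7 in DMR1 at the other. In the 5 liver H3K27ac lists the corresponding ranges were 73.9 to 79.5 and 69.7 to 78.5, and the second value was the higher one in DMR4 only. Under TBX5 peaks with a fold under 3 the heart H3K27ac peaks ranked low. Their median percentiles were 0.0282 to 4.39, on 8 to 12 TBX5 peaks per library. In liver these medians ran from 1.62 to 91.3, also on few peaks.

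Outside heart H3K27ac, TBX5 peaks with a fold of at least 10 lay nearer to it than the rest. Outside here means not meeting the overlap rule, so peaks that share a smaller part with a region are included. With 1 base of overlap asked instead, 70.5% of peaks with a fold of at least 10 lay in heart H3K27ac, against 63.1% by the rule. Over all TBX5 peaks these shares were 11.4% and 9.86%. How far such touching peaks shorten the distances was not tested. The median distance to the nearest heart H3K27ac region was 77.3 kb over all TBX5 peaks outside, and 10.8% of them lay within 5 kb. By band of fold it was 63.5 kb under 3, 56.6 kb at 3 to under 4, 69.7 kb at 4 to under 5, 84.4 kb at 5 to under 6, 89.7 kb at 6 to under 8, 76.8 kb at 8 to under 10 and 22.6 kb at 10 to under 15. The distance thus lengthened from a fold of 3 to 8 before it shortened. For peaks outside with a fold of at least 15 the median was 20.0 kb, and 36.9% lay within 5 kb. Distances to liver H3K27ac were also shorter there, with a median of 55.6 kb overall and 18.8 kb at folds of at least 15, with 21.8% within 5 kb. Peaks on scaffolds that hold no such region were left out of these distances. For heart H3K27ac they were 3737 of the 56617 peaks outside, 529 of 612 under a fold of 3 and 3 of 68 at folds of at least 15. The 63.5 kb under a fold of 3 thus stands for a small part of that band. Another TBX5 peak stood within 5 kb of 27.4% of all TBX5 peaks and of 34.6% of those with a fold of at least 10.

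The 8 TBX5 peaks with the highest folds showed the range of settings. The highest, KN122825.1:1790151-1790994, had a fold of 66.0 and lay on heart H3K27ac peaks of 4 hearts, whose own folds were 4.14 in DMR4, 6.65 in DMR11, 6.88 in DMR2 and 7.42 in DMR3. A heart H3K4me1 peak of DMR2 was also there, and no liver peak of any mark or factor. KN121181.1:1099696-1101014 (fold 42.6), KN122191.1:5559778-5560610 (41.8) and KN123190.1:2523670-2524520 (40.2) each lay on H3K27ac in all 5 hearts, with no H3K4me1, no H3K4me3 and no liver peak. KN124515.1:3586481-3587182 (41.8) lay on H3K27ac in DMR2 and DMR3 and on H3K4me1 in DMR1.

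Of the other 3, one was shared with liver and the rest had little or no mark. KN121161.1:8728443-8729372 (fold 48.9) lay on H3K27ac and H3K4me1 in 4 hearts each and in all 5 livers each, on H3K4me3 in 1 heart, and on peaks of RXRA and CEBPA in both animals and of HNF4A. Its H3K27ac folds were 3.07 to 10.7 in heart and 10.4 to 19.2 in liver. KN122264.1:4814139-4815105 had the second highest fold, 58.3, and overlapped no peak of any histone library or liver factor list. Its nearest heart H3K27ac region was 12.7 kb away. KN122940.1:741467-742663 (52.8) overlapped an H3K27ac peak in DMR1 alone, with a fold of 3.37; its summit lay inside a heart H3K27ac consensus region, with less than 50% of either in common. Next in fold among TBX5 peaks with neither a consensus region nor a liver factor peak were KN123860.1:2461076-2462014 (36.3), on no histone peak at all, and KN123555.1:1556701-1557595 (34.2), on H3K27ac peaks of DMR2 and DMR3.

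TBX5 peaks with H3K4me3 in both tissues were ranked by fold in the same way. A fold of at least 10 was reached by 87 of the 1671 TBX5 peaks in heart H3K4me3 and by 44 of the 1236 in liver H3K4me3. Over all 62813 TBX5 peaks, 879 (1.40%) reached it. Among the 1055 TBX5 peaks with consensus H3K4me3 of both heart and liver, KN124190.1:161584-162195 had the highest fold, 28.4. It lay on H3K4me3 in 4 hearts and both livers, on H3K27ac in all 5 hearts and 5 livers, and on RXRA in both animals. The next were KN121093.1:399122-399843 (21.3), KN123523.1:606942-607583 (18.5) and KN122459.1:4525348-4526742 (18.2), and all 3 also carried H3K27ac in at least 4 hearts and 4 livers.

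The TBX5 peaks were next set against the liver factors. At least 1 of the 8 liver factor lists had a peak at 6566 TBX5 peaks (10.5%; whole list 8.44%), or 5.09% with the same number of peaks taken from each list. Single lists ranged from 1.53% (961 peaks; whole list 0.988%) for FOXA1 in DMR4 to 3.71% (2331; whole list 2.63%) for RXRA in DMR4. FOXA1 in DMR1 was at 1.72% (whole list 1.18%), CEBPA in DMR1 at 2.16% (whole list 1.54%), RXRA in DMR1 at 2.49% (whole list 1.72%) and HNF6 in DMR1 at 2.66% (whole list 2.07%). HNF4A in DMR4 was at 3.32% (whole list 2.39%) and CEBPA in DMR4 at 3.54% (whole list 2.68%). In the other direction, 2.48% to 4.93% of the peaks of a liver factor list overlapped a TBX5 peak.

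The liver factors differed from TBX5 in where their own peaks lay. With the same threshold of −log10 q, 19.3% to 65.2% of the peaks of the 8 liver factor lists overlapped liver H3K27ac and 6.51% to 31.7% heart H3K27ac, and each list had the higher share in liver. For TBX5 the higher share was in heart, and its 9.86% there was below the 19.3% of HNF6 in liver H3K27ac, the lowest of the 8 liver values. With a fold of at least 10, TBX5 peaks overlapped liver factor lists more often than all TBX5 peaks did, 222 of 879 (25.3%). RXRA in DMR4 was at 15.9% of them, CEBPA in DMR4 at 11.8% and HNF4A in DMR4 at 10.9%, while FOXA1 in DMR1 was at 3.64%.

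How many liver lists shared a TBX5 peak divided the peaks into unlike groups. Among the 56247 TBX5 peaks in none of the 8 lists, 9.44% lay in a heart and 6.24% in a liver consensus region. Among the 320 in 4 lists, 63.4% lay in a heart and 84.7% in a liver region, with a median fold of 5.29. Beyond 4 lists both shares went down again. Of the 245 TBX5 peaks in all 8 lists (0.390%; whole list 0.189%), 8.16% lay in a heart and 8.16% in a liver region, and the median fold was 1.92.

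**Figure D5:**
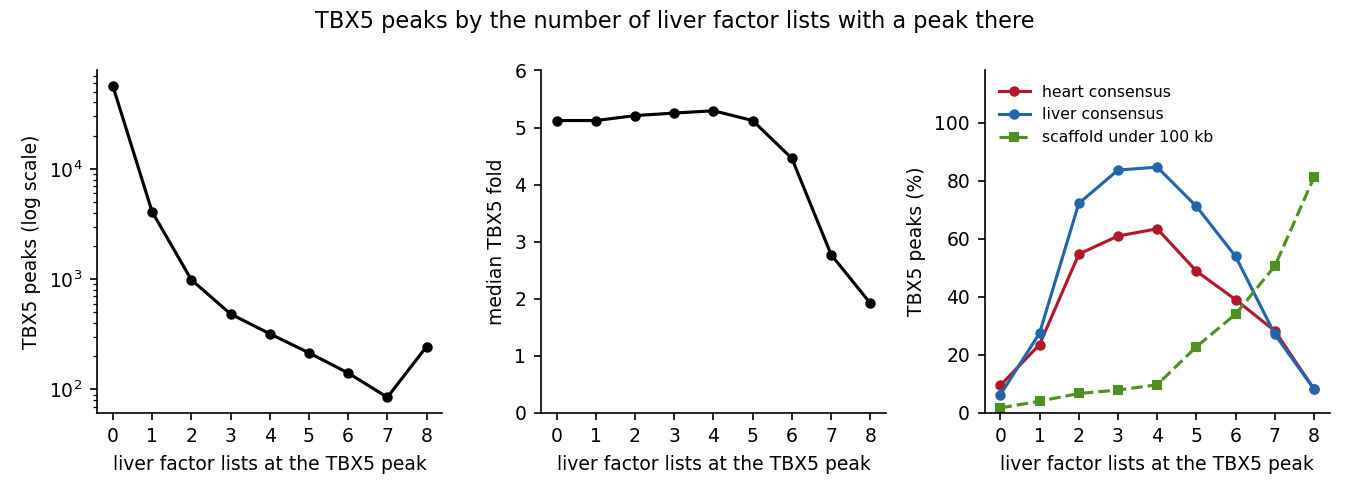
TBX5 peaks by the number of liver factor lists, 0 to 8, with a peak at the same place: their number (left, log scale), their median fold (middle), and the percentage in a heart consensus region, in a liver consensus region and on a scaffold under 100 kb (right). Liver consensus peaks at 84.7% for 4 lists and is 8.16% for all 8, where 81.2% lie on short scaffolds.

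Those peaks largely coincided with the TBX5 peaks of low fold. Of the 625 with a fold under 3, 514 (82.2%) were in at least 1 liver list and 217 in all 8, which is 34.7% of the 625 and 88.6% of the 245 peaks in all 8. They lay on short scaffolds: 517 (82.7%) were on scaffolds under 100 kb, which held 2.53% of all TBX5 peaks, 1.25% of those with a fold of at least 10 and 0.945% of the summed scaffold length. No histone consensus region was found at 588 of them (94.1%), against 84.0% of all TBX5 peaks and 86.9% of the whole list. Of the 625, 13 (2.08%) lay in heart H3K27ac, against 9.86% of all TBX5 peaks and 7.11% of the whole list. Of the 612 outside it, 529 were on scaffolds that hold no heart H3K27ac region, where no overlap was possible. Another TBX5 peak stood within 5 kb of 44.8% of the 625.

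A low fold did not mean a low −log10 q. Of the 62 TBX5 peaks whose −log10 q reached 100, 38 had a fold under 3 and 23 a fold of at least 10. The highest value of the library, 5547, belonged to KN121233.1:5583-6836 with a fold of 2.59, and the next, 4281, to KN121233.1:8303-8916 with a fold of 2.10. Both lay on the same scaffold of 26.9 kb and in all 8 liver lists. In the liver lists themselves the peaks at these 245 places ranked high by −log10 q, with median percentiles of 80.2 to 99.1. By fold the lists were divided. The median fold at these places was above that of the list in every DMR1 list, as in HNF6 with 5.72 against 4.51. It was below that of the list in every DMR4 list, as in RXRA with 3.53 against 6.54. Of the 62 TBX5 peaks whose −log10 q reached 100, 37 were in all 8 liver lists and 14 in heart H3K27ac. The 8 peaks of highest fold were all among these 62, with −log10 q of 138 to 287. The highest −log10 q thus took in peaks from both ends of fold.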

How the data were processed

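Each peak list was deposited as 1 list per library, called against an input library of the same tissue per the file names. The authors used MACS2, per the submitters' processing notes. Its version and settings, and the aligner, were not given in the sources used here. Folds were deposited as a linear ratio of signal to background, and the deposited −log10 q-value is the caller's own. Scaffold names were those of DMR_v1.0, the build named in the histone file names; positions count from 1. A genome and genes of that build were not used here, so the motif searches and gene lists planned were not run and no sequence is printed.

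Of 116 lists, 36 were used: 1 of TBX5, 27 of histone marks and 8 of liver factors; the 80 lists of other species or uncertain species were left out. Overlaps and consensus regions were computed in Python 3.11.15 with pandas 2.3.3, SciPy 1.17.1 and NumPy 2.4.6, and plotted with Matplotlib 3.10.9. The overlap code was tested on simulated intervals with known answers. Regions were named by rank: the 8 highest folds, and the 4 highest with heart H3K27ac and no liver consensus region, with H3K4me3 of both tissues, and with neither a consensus region nor a liver factor peak. The TBX5 peaks and all sets of them were chosen with earlier results of these data known. With 1 TBX5 library no test was made; peaks of 1 library are not replicates, and the SDs are over histone libraries. Alternatives tried were the overlap rule, the number of libraries behind a consensus region, stricter q thresholds, equal numbers of peaks and leaving out each library.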

Additional observations from a re-analysis of the deposited data

Results flagged for a closer look

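In 15 groups of 5 histone libraries, the library farthest from the rest was compared with the range of its group. Chance alone sets apart about 1 group in 20 where groups are independent. These were not, since the same libraries recur with different sets of TBX5 peaks. Here 2 were set apart, both of heart H3K4me3. Heart H3K4me3 peaks of DMR11 lay at 1.37% of all TBX5 peaks, the lowest of the 5 hearts, where the other 4 lay at 2.56% to 2.74%; its list was the shortest of the 5, with 20803 peaks, and the longer lists held 32574 to 53676. Heart H3K4me3 peaks of DMR4 lay at 4.64% of the TBX5 peaks with a fold under 3, the highest of the 5, and the lowest was 0.16%; the DMR4 list was the longest of the 5.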

How the results depend on the processing

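In all, 14 values were recomputed. A move was judged against the SD between histone libraries for 11 of them, and against counting error alone (from the Wilson interval) for 3: no consensus, liver factors and the difference between fold groups. For that difference the bound, 0.913 points, was the one for a single share. It is smaller than the counting error of a difference of 2 shares, so some of its moves can lie within that error. Of 152 recomputed values, leaving out of libraries apart, 105 moved by less than their bound, 46 by more and 1 changed sign. With −log10 q of at least 10 for TBX5 peaks, the heart minus liver share of H3K4me1 changed from −1.60 to 2.53 percentage points. The same threshold gave 5.77%, 28.4% and 16.4% for heart H3K4me3, H3K27ac and H3K4me1, and 3.68%, 11.9% and 13.9% for liver. It gave heart minus liver differences of 2.09 points for H3K4me3 and 16.5 for H3K27ac, no consensus region at 64.8% and at least 1 liver factor list at 21.9%. With the whole TBX5 list, heart H3K27ac was at 7.11%, liver H3K4me3 at 1.59%, liver H3K27ac at 5.00%, the H3K27ac difference at 2.11 points, no consensus at 86.9% and liver factors at 8.44%. With 1 base of overlap, heart H3K4me1 was at 9.25%, liver H3K4me3 at 2.28%, liver H3K27ac at 7.13% (22.9% at folds of at least 10), liver H3K4me1 at 10.2%, no consensus at 81.5% and liver factors at 14.2%. With equal numbers of peaks per library these were 3.45% for heart H3K4me1, 4.79% for liver H3K27ac (17.1% at folds of at least 10), 3.90% for liver H3K4me1, 88.3% for no consensus and 5.09% for liver factors. Bases covered by at least 2 libraries gave 1.64% for liver H3K4me3 and 84.7% for no consensus, and histone peaks with −log10 q of at least 4 gave 85.4% for no consensus. The liver factor share was 8.28% by summits and 7.57% with liver peaks of −log10 q of at least 4.

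Some alternatives were chosen after seeing the data, as were the sets of fold and the bands. On scaffolds reaching 1 Mb, no consensus was at 83.6% and liver factors at 9.57%; with folds of at least 3, liver factors were at 9.73%, and without peaks in all 8 lists at 10.1%. The heart H3K27ac difference between the highest and lowest of 10 equal groups by fold, 16.3 points, was 18.6 with 1 base of overlap, 15.1 by summits, 15.4 with at least 3 libraries, 14.7 with equal numbers, 12.7 with the whole list, 54.1 with −log10 q of at least 10, 15.3 with folds of at least 3 and 15.1 on scaffolds reaching 1 Mb.

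Of 98 values with 1 library left out, 83 moved by less than that bound. That range was 15.1 to 16.3 points for the difference between these fold groups, 6.75% to 7.77% for liver H3K4me1, 84.0% to 84.6% for no consensus and 8.97% to 10.2% for liver factors. The heart H3K27ac share at folds of at least 10 was 57.9% to 62.7% with 1 library left out and 56.4% to 70.5% under the other alternatives. The cause of these changes was not tested. With 2 liver H3K4me3 libraries, leaving out 1 or asking for 3 gave no consensus. Paired within the animals with both tissues, the replicate block chosen after seeing the data, the mean heart minus liver difference of library shares was 0.669 points for H3K4me3 (n = 2), 2.85 for H3K27ac (n = 4) and −0.854 for H3K4me1 (n = 4), with the signs of the consensus differences. Depth is unknown, so differences between lists in peak number cannot be told apart from depth.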
